A study of Mus musculus with 6 samples.

Results

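The 9 genes described here encode 5 STAT transcription factors (Stat2, Stat3, Stat5a, Stat5b and Stat6) and 4 inhibitors of the SOCS family (Socs1, Socs2, Socs3 and Cish). They were chosen by symbol: a row of the deposited array table was taken where its annotation carried exactly 1 gene symbol and that symbol was one of the 9, and the rows of a gene were averaged. All 9 were found, on 11 of the 28815 rows, among 19935 genes in all. Socs2 and Socs3 had 2 rows each.

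The cells were primary keratinocytes, the epithelial cells of the epidermis, from wild-type CD1 mice, kept in low-calcium growth medium, in which keratinocytes stay largely undifferentiated. In 3 cultures a retrovirus delivered caNFATc1, a human NFATc1 whose mutated autoinhibitory domain leaves it constantly active. The other 3 cultures received virus made from the empty MSCV vector, so infection itself was common to both groups. The age of the mice, the share of cells infected and whether same-numbered cultures came from 1 preparation could not be learned from the labels. The comparison asks which transcripts differ when NFATc1, normally switched on by calcium through the phosphatase calcineurin, is always active.

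STAT proteins carry cytokine signals to the nucleus. A cytokine brings its receptor chains together, JAK kinases bound to the receptor phosphorylate it and the STATs that dock there, and STAT dimers move to the nucleus and bind DNA. SOCS proteins, many of them encoded by STAT target genes, then bind the receptor or the kinase and shut the signal down. In skin, STAT3 is known for its roles in wound repair, hair growth and tumours, STAT6 carries IL-4 and IL-13 signals, STAT5 those of prolactin and growth hormone, and STAT2 those of type I interferon.

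Total RNA of each culture was measured on 1 single-colour array. The deposited log2 values are centred row by row on the median of the 6 arrays: a value of 0 is the middle of the arrays and a difference of 1 is 2-fold. Neither a level nor the presence of a transcript can be read from them, which also means that the keratinocyte label could not be checked against its markers. Replicate 1 stood apart in both groups: Xist, the RNA that silences an X chromosome, was lower on both of its arrays than on every array of replicates 2 and 3, by at least 5.97. The NFAT target Rcan1 was higher in caNFATc1 cells by 3.61, 3.12 and 3.40 in the 3 same-numbered pairs. The row of mouse Nfatc1 differed by 0.04 ± 0.09, but the transgene is human and this row does not check the labels.

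Stat5a was higher and Socs2 lower in caNFATc1 cells, and the other 7 genes passed neither of the fits described here. Stat5a encodes one of the paired STAT5 proteins, and Socs2 encodes an inhibitor best known for restraining growth hormone signalling through STAT5. Both calls were made with the replicate number taken into account (Stat5a was also called without it when arrays were weighted, adjusted p = 0.0269). In the fit without it, limma called 0 of the 9 genes at an adjusted p under 0.05 over all genes, against 0.216% of all genes, while 2 of the 9 had an unadjusted p under 0.05, against 12.7% of all genes. With the replicate number as a block, 1 rose and 1 fell, against 3.73% of all genes called higher and 2.38% called lower. In that fit 3 of the 9 had an unadjusted p under 0.05, against 4287 of all 19935 genes. Errors below are limma's standard errors (SE) with 3 arrays per group, those of the unblocked fit unless the block is named.

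**Figure D1:**
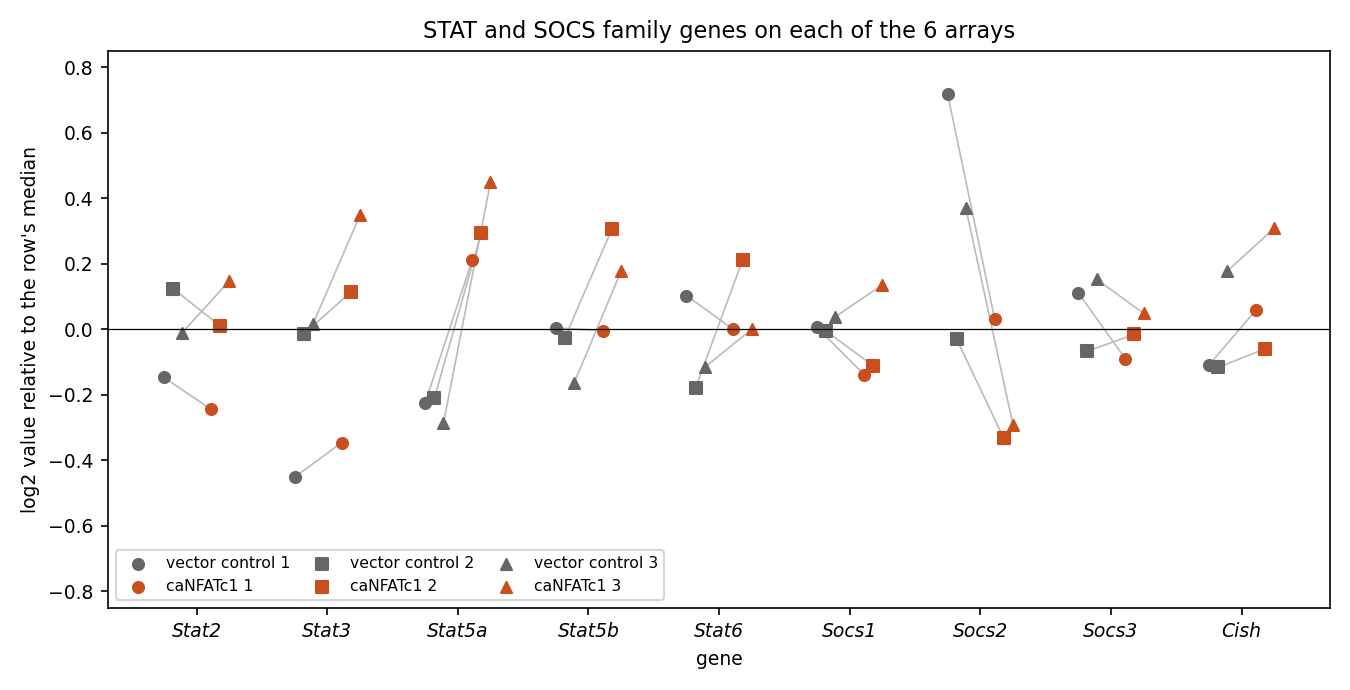
Log2 value relative to the row's median (vertical axis) of each STAT and SOCS gene (horizontal axis) on the 6 arrays; grey marks are vector control, orange marks caNFATc1, the marker shape gives the replicate number, and grey lines join same-numbered arrays. For Stat5a the caNFATc1 arrays, from 0.21 to 0.45, lie above the control arrays, from -0.29 to -0.21; for Socs2 every line runs downward while the groups overlap.

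Stat5a stood at -0.22, -0.21 and -0.29 on vector control arrays 1, 2 and 3 and at 0.21, 0.29 and 0.45 on caNFATc1 arrays 1, 2 and 3. The groups did not overlap. Of the 9 genes 1 was clear in this direction and 0 in the other, against 9.64% and 9.09% of all genes. The same shares, by direction, stand beside the other genes described below as not overlapping. The SD was 0.04 among controls and 0.12 among caNFATc1 arrays, so the gap between the groups exceeded the spread within either. Stat5a rose by 0.56 ± 0.08, or 1.47-fold, with the replicate block (adjusted p = 0.0245), and it differed by 0.44, 0.51 and 0.73 in pairs 1, 2 and 3. The adjusted p was 0.0601 without the block. With the block it was 0.0369 without replicate 1 of both groups (difference 0.62) and 0.0436 without replicate 3, but 0.0576 without replicate 2, which ended the call. In bulk RNA, fewer cells of a type and less RNA per cell cannot be told apart. By size of difference Stat5a ranked 920th of the 19935 genes.

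Stat5b, whose protein is the close relative of STAT5A and is activated by many of the same cytokines, stood at 0.00, -0.03 and -0.16 on the control arrays and at 0.00, 0.31 and 0.18 on the caNFATc1 arrays. Arrays 1 of both groups lay together, and arrays 2 and 3 of the caNFATc1 group lay above the controls. The difference of 0.22 ± 0.10 did not pass (adjusted p = 0.426, and 0.245 with the block), and its 95% interval ran from -0.02 to 0.46. The difference of Stat5a exceeded that of Stat5b by 0.44, 0.17 and 0.39 in the 3 pairs, on average by 0.34 (2-sided exact permutation p = 0.1, the smallest that 3 against 3 arrays can give, and 0.15 adjusted over the 3 gene pairs compared this way). It exceeded that of Stat3 by 0.33, 0.38 and 0.40 in the 3 pairs, on average by 0.37 (exact permutation p = 0.3, also after adjustment). The permutation test does not use the replicate pairing, and the values of Stat3 followed the replicate number.

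Stat5b, Stat5a and Stat3 lie next to each other in that order in the RefSeq annotation of the GRCm38.p6 assembly. The bases before their annotated starts are shown for the STAT5 pair because the genes share sequence there although only Stat5a was called. RefSeq windows for this assembly were found for 8 of the 9 genes, 10 windows in all, with 2 annotated starts each for Stat5a and Stat5b. The window shown for each is the one that holds GGAAA, and the windows before their other starts hold 0. For Stat5b the other window, chr11:100850582-100850831, lies upstream along the gene, so the window shown is downstream of that other start. Each sequence below is the 250 bases before 1 annotated start, written 5′ to 3′ along the gene. Capitals mark GGAAA, the core bases that NFAT proteins bind.
Stat5a, chr11:100860234-100860483, plus strand: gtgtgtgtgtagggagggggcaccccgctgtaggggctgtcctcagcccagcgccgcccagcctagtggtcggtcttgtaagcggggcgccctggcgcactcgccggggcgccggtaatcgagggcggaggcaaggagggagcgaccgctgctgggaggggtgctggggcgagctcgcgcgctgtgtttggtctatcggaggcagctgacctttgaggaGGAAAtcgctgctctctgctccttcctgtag
Stat5b, chr11:100822571-100822820, minus strand: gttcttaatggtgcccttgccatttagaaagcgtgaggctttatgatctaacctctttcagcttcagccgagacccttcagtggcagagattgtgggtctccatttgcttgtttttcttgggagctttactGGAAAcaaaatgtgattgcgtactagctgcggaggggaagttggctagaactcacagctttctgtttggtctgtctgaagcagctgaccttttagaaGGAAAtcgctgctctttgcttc
The longest run shared by these windows is 16 bases, AGGAAATCGCTGCTCT, which holds the GGAAA and begins 32 bases before the Stat5a start and 23 bases before the Stat5b start. Searched on both strands, GGAAA was found in 6 of the 10 windows, against 55.6% of 32851 windows of this length in the RefSeq table, so it is common. How often windows share a run of 16 bases was not tested.

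Stat3, the main effector of the IL-6 family, varied more between replicate numbers than between groups. It stood at -0.45, -0.01 and 0.01 on the control arrays and at -0.35, 0.11 and 0.35 on the caNFATc1 arrays, with both arrays of replicate 1 lowest. The mean of the same-numbered arrays spanned 0.58 over the replicates, against a group difference of 0.19 ± 0.21 (adjusted p = 0.805). Within pairs the difference was 0.11, 0.13 and 0.33, and it did not pass with the block (± 0.08, adjusted p = 0.227). Without replicate 1 of both groups it was 0.23 (adjusted p = 0.212 with the block).

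Stat6 stood at 0.10, -0.18 and -0.12 on the control arrays and at 0.00, 0.21 and 0.00 on the caNFATc1 arrays. The pairs disagreed in direction, at -0.10, 0.39 and 0.12, and the difference of 0.13 ± 0.10 did not pass (adjusted p = 0.681, and 0.557 with the block). Stat2, whose protein acts in the complex that type I interferon activates, stood at -0.15, 0.12 and -0.01 on the control arrays and at -0.24, 0.01 and 0.15 on the caNFATc1 arrays. The groups overlapped throughout, and the difference was -0.02 ± 0.12 with a 95% interval from -0.32 to 0.28.

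**Figure D2:**
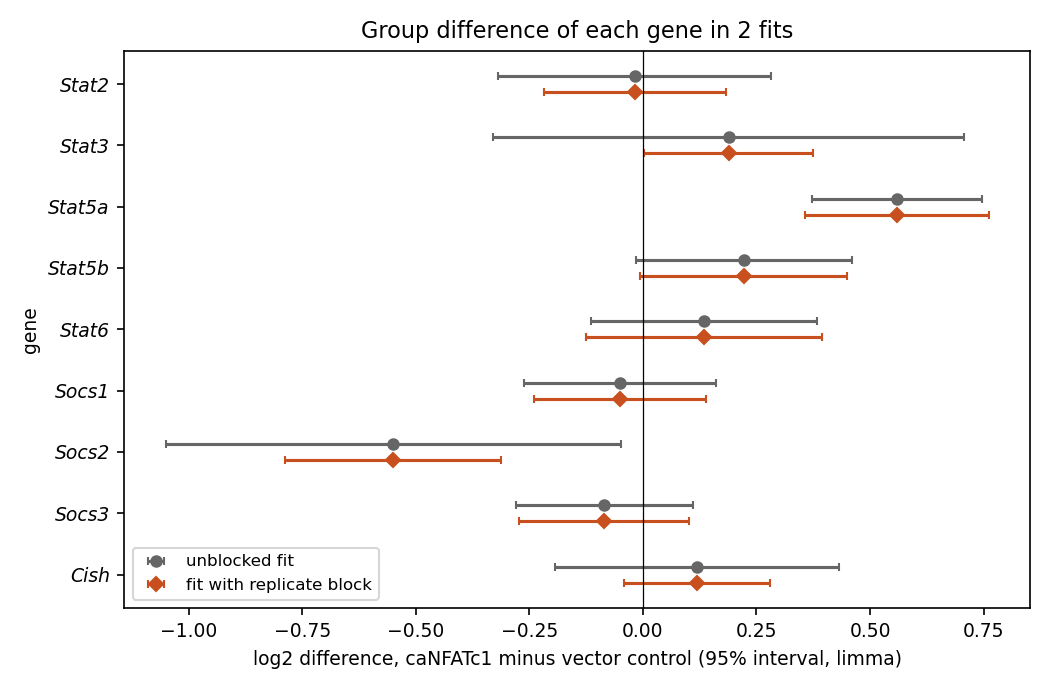
Log2 difference, caNFATc1 minus vector control (horizontal axis), of each gene (vertical axis) with 95% intervals from the unblocked fit (grey) and the fit with the replicate block (orange), 3 arrays per group. The intervals of Stat5a and Socs2 lie clear of 0 in both fits before adjustment for the number of genes, as does that of Stat3, by less than 0.01, with the block; with the block the interval of Socs2 runs from -0.79 to -0.31.

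Among the inhibitors, Socs2 stood at 0.72, -0.03 and 0.37 on the control arrays and at 0.03, -0.33 and -0.29 on the caNFATc1 arrays. Arrays 1 were highest in both groups and control array 2 lay just under caNFATc1 array 1, so the groups overlapped. Within pairs Socs2 was lower in caNFATc1 cells by -0.69, -0.30 and -0.66. It fell by 0.55 ± 0.10, a 1.46-fold difference, with the replicate block (adjusted p = 0.0357), whereas the unblocked SE was 0.21 (adjusted p = 0.345). Its 2 rows, both annotated with the same RefSeq transcripts, gave differences of -0.50 and -0.60. With the block the call was lost without replicate 1 of both groups (-0.48, adjusted p = 0.0895) and without replicate 3 (-0.49, 0.0686), and held without replicate 2 (-0.67, 0.0261).

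Cish, the founding member of the SOCS family and a standard STAT5 target gene, stood at -0.11, -0.12 and 0.18 on the control arrays and at 0.06, -0.06 and 0.31 on the caNFATc1 arrays. Arrays 3 were highest in both groups. The pairs differed by 0.17, 0.06 and 0.13, and the mean difference of 0.12 ± 0.13 did not pass (adjusted p = 0.793, and 0.377 with the block, where the SE was 0.06). The difference of Cish exceeded that of Socs2 by 0.67 (2-sided exact permutation p = 0.1, 0.15 adjusted over the same 3 gene pairs), by 0.85, 0.36 and 0.79 within pairs.

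Socs1 and Socs3 encode the members that inhibit JAK kinases directly, Socs1 chiefly after interferon and Socs3 at the shared IL-6 receptor chain. Socs1 stood at 0.01, -0.01 and 0.04 on the control arrays and at -0.14, -0.11 and 0.14 on the caNFATc1 arrays, which lay on both sides of the controls. Socs3 stood at 0.11, -0.07 and 0.15 on the control arrays and at -0.09, -0.02 and 0.05 on the caNFATc1 arrays, all within the range of the controls except array 1. The differences were -0.05 ± 0.09 for Socs1 and -0.08 ± 0.08 for Socs3, with 95% intervals from -0.26 to 0.16 and from -0.28 to 0.11. The 2 rows of Socs3 gave -0.08 and -0.09.

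The window before the start of Socs3 is shown because it was the single one of the 10 windows to hold the letters TTCNNNGAA, the gamma-activated site that STAT dimers recognise, marked in capitals and found in 7.02% of all windows.
Socs3, chr11:117969367-117969616, minus strand: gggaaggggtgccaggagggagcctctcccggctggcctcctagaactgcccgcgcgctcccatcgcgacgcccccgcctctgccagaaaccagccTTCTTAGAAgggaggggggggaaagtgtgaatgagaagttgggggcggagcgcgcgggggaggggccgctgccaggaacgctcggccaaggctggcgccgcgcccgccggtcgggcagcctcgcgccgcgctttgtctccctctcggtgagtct
That match begins 154 bases before the start. The variant with 1 more base between TTC and GAA, which STAT6 prefers, was found in 1 of the 10 windows, that of Stat2, and in 5.85% of all windows. For Socs2 no sequence is shown.

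The kinases and the other members of both families were described next. Of 4 JAK genes 3 had a row, with differences of 0.48 for Jak2, 0.31 for Tyk2 and 0.16 for Jak1 and a median of 0.31, against -0.01 over all genes. Jak2, the kinase of the growth hormone, prolactin and erythropoietin receptors, stood at -0.10, -0.12 and -0.32 on the control arrays and at 0.52, 0.27 and 0.10 on the caNFATc1 arrays, which did not overlap. It rose by 0.48 ± 0.08 with the replicate block (adjusted p = 0.029, and 0.197 without). Tyk2, which serves interferon and IL-12 type receptors, did not pass (adjusted p = 0.149 with the block) although its groups did not overlap. Stat4, Socs4, Socs5, Socs6 and Socs7 differed by between -0.22 (Socs5) and 0.25 (Socs7), and limma called 0 of the 5 with or without the block. At an unadjusted p under 0.05 there were 0 without the block and 1 with it, against 2534 and 4287 of all 19935 genes.

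Genes listed under the IL-6 family, most but not all of whose cytokines signal through gp130, mainly to STAT3, held 3 further calls. The lists have 19 measured genes and also hold Lep, Csf3 and Il31 with their receptor genes. All 3 calls were upward and with the replicate block, against 3.73% of all genes called higher in that fit. Il6st, which encodes gp130, stood at -0.76, -0.59 and -0.13 on the control arrays and at 0.35, 0.13 and 0.38 on the caNFATc1 arrays. The groups did not overlap, and Il6st rose by 0.78 ± 0.12, or 1.72-fold, with the replicate block (adjusted p = 0.028, and 0.153 without). Il11, a cytokine that signals through gp130, stood at -0.43, -0.25 and -0.64 on the control arrays and between 0.25 and 0.27 on the caNFATc1 arrays. Il11 rose by 0.69 ± 0.09, or 1.62-fold, with the block (adjusted p = 0.0203, and 0.0723 without). Osmr, the partner of gp130 in the oncostatin M receptor, rose by 0.37 ± 0.06 with the block (adjusted p = 0.0332, and 0.374 without), by 0.35, 0.36 and 0.40 within pairs, while its groups overlapped.

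Both lists had medians close to the -0.01 of all genes. Of 10 IL-6 family ligands 1 rose, 5 differences were positive and 5 negative, and the median was -0.02. Of 9 receptors 2 rose, 4 were positive and 5 negative, and the median was -0.01. Lif and Osm, other gp130 cytokines, differed by -0.26 and -0.16 without passing (adjusted p = 0.204 and 0.322 with the block).

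The receptors that feed STAT5 and STAT6 gave no call. Of 6 ligands and 7 receptors of the growth hormone, prolactin, erythropoietin and beta common chain group, limma called 0 with or without the block and 0 had an unadjusted p under 0.05 in either fit. Differences ran from -0.18 (Gh) to 0.03 among the ligands, with Csf2 at -0.06, and from -0.16 (Csf2rb2), with Csf2rb at -0.12, to 0.09 (Ghr, the growth hormone receptor) among the receptors. The prolactin receptor gene Prlr had no row of its own and was not analysed here. Of 8 ligands and 10 receptors of the IL-4, IL-13, TSLP and common gamma chain group, 0 were called in either fit. At an unadjusted p under 0.05 there were 1 ligand and 0 receptors without the block, and 1 ligand and 1 receptor with it. Over all 19935 genes the counts were 2534 without the block and 4287 with it. The epithelial cytokine gene Tslp and its receptor gene Crlf2 differed by 0.21 and 0.19 without overlap between groups and did not pass (adjusted p = 0.204 and 0.224 with the block). Il4 and the IL-2 receptor gene Il2ra differed by 0.10 and -0.16.

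Of 11 IL-10 family ligands and receptors limma called 0 in either fit. An unadjusted p under 0.05 was found for 0 without the block and 2 with it, against 2534 and 4287 of all 19935 genes. Differences ran from -0.62 (Il24) to 0.31, with Il19 and Il20 at 0.07 and -0.08. Of 8 interferon ligands and receptors 1 rose with the block: Ifnar1, a chain of the type I interferon receptor, by 0.35 ± 0.07 (adjusted p = 0.046, and 0.403 without). The epithelial interferon gene Ifne differed by -0.19. Of 18 targets of STAT2 complexes 1 rose with the block: Ifit2, an antiviral RNA-binding protein, by 0.37 ± 0.06 (adjusted p = 0.0345, and 0.567 without), with 9 differences positive, 9 negative and a median of -0.01. For both lists the share of all genes called higher in that fit was 3.73%. Oas2, an antiviral enzyme, differed by -0.20. Of 13 PIAS, phosphatase and SH2B adaptor genes limma called 0 in either fit. The same held for 8 parts of the ubiquitin ligase that SOCS proteins recruit. In these lists 2 and 0 had an unadjusted p under 0.05 in each fit. Over all 19935 genes the counts were 2534 without the block and 4287 with it. Pias1 and Ptpn6, which encode negative regulators, differed by 0.35 and 0.21 without overlap (adjusted p = 0.108 and 0.124 with the block). Of the ligase parts, Eloc and Ube2f differed by -0.12 and 0.09.

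**Figure D3:**
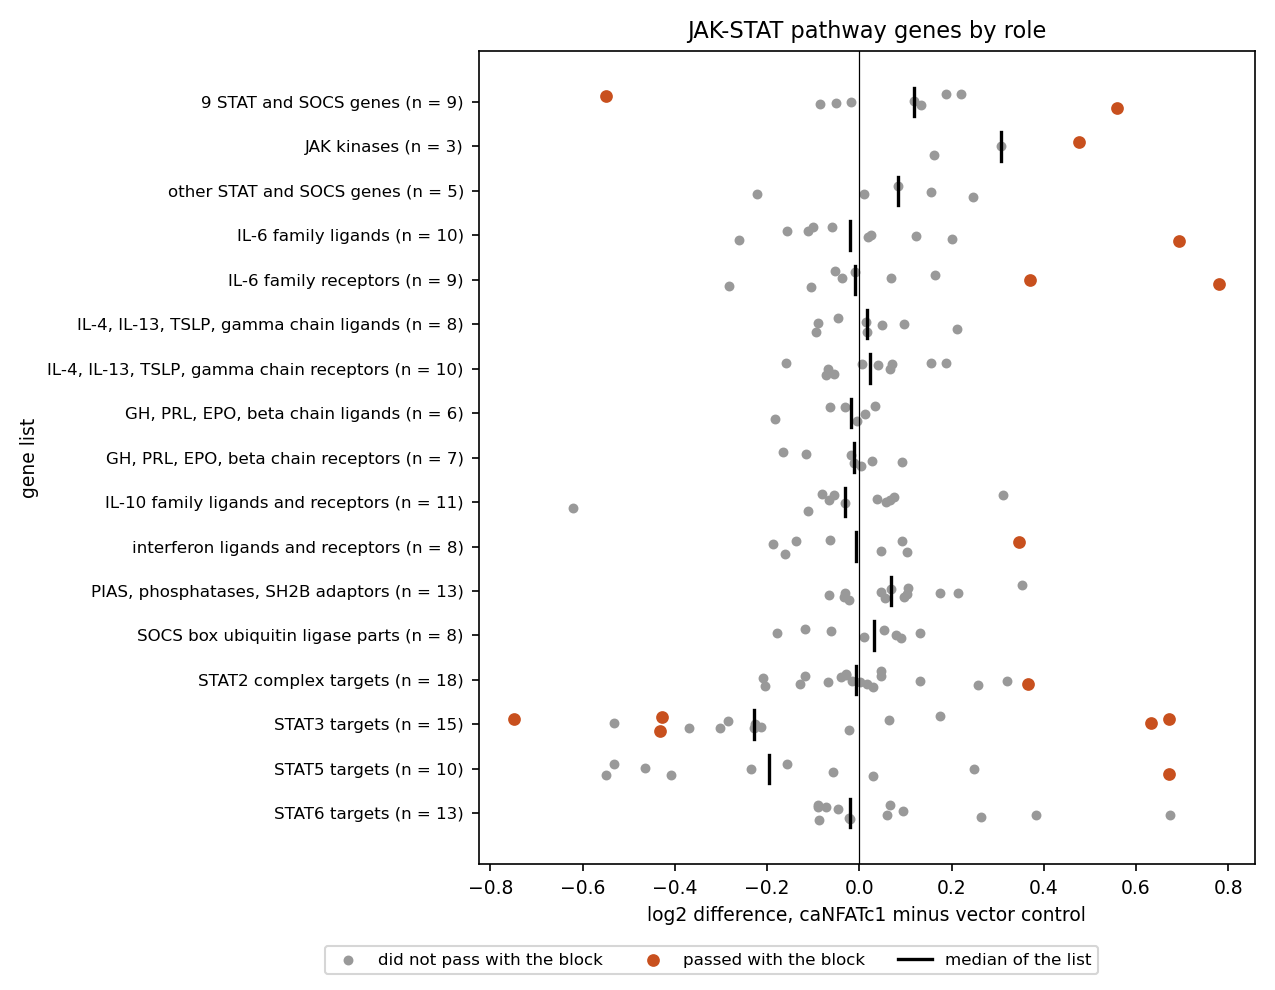
Log2 difference, caNFATc1 minus vector control (horizontal axis), of each measured gene in the 9 STAT and SOCS genes and in 16 lists of JAK-STAT pathway genes by role (vertical axis, jittered); orange points passed limma's test with the replicate block, grey points did not, and black bars are list medians. The lists of receptors and ligands centre near 0, while the medians of the STAT3 and STAT5 target lists are -0.23 and -0.20. Within replicate pair 2 those 2 medians are -0.04 and -0.09. Bcl2l1 and Pim1 are in both of these target lists. GH, PRL and EPO stand for growth hormone, prolactin and erythropoietin.

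Known STAT3 target genes differed in both directions. With the replicate block 2 of the 15 measured rose and 3 fell, or 33.3%, against 6.11% of all genes called in either direction. Without it limma called 0, with 4 at an unadjusted p under 0.05, or 26.7%, against 12.7% of all genes. The list was drawn up with earlier results of these data known, so these shares are a description. Bcl2l1, which encodes the survival protein BCL-XL and is a target of both STAT3 and STAT5, rose by 0.67 ± 0.09, or 1.59-fold (adjusted p = 0.0203 with the block, 0.0601 without). It stood at -0.24, -0.30 and -0.52 on the control arrays and at 0.24, 0.38 and 0.34 on the caNFATc1 arrays. Vegfa, a growth factor for blood vessels, rose by 0.63 ± 0.07 with the block (adjusted p = 0.0138, and 0.140 without).

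The members that fell were Cebpb, a transcription factor of the acute phase and of keratinocyte differentiation, by 0.43 ± 0.07 (adjusted p = 0.031 with the block), Timp1, an inhibitor of matrix metalloproteinases, by 0.43 ± 0.07 (0.0278), and Birc5, by 0.75 ± 0.12 (0.0293). Without the block their adjusted p was 0.242, 0.671 and 0.231. Birc5 encodes survivin, a part of the machinery that separates chromosomes in mitosis. Of the 15 differences 11 were negative, with a median of -0.23, against 10483 of the 19935 genes. The medians within pairs 1, 2 and 3 were -0.43, -0.04 and -0.29, so the list differed little in pair 2.

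Of 10 STAT5 targets 1 rose with the block, Bcl2l1, against 3.73% of all genes called higher. At an unadjusted p under 0.05 there were 2 without the block and 4 with it, against 2534 and 4287 of all 19935 genes. Of the 10 differences 7 were negative, with a median of -0.20, against 10483 of the 19935 genes. Within pairs 1, 2 and 3 the medians were -0.45, -0.09 and -0.13, so the list differed mostly in pair 1. Bcl2l1 and Pim1 were in the STAT3 list too. Gadd45g, a stress and growth arrest gene, differed by -0.55 without overlap between groups, and the kinase gene Pim1 by -0.53, and neither passed (adjusted p = 0.111 and 0.0755 with the block). Igf1, the growth hormone target, differed by 0.03. Of 13 STAT6 targets 0 were called in either fit. In each fit 1 had an unadjusted p under 0.05, against 2534 of all 19935 genes without the block and 4287 with it. Pparg, a nuclear receptor of lipid metabolism that STAT6 induces in macrophages, differed by 0.38 (adjusted p = 0.0678 with the block) and Ccl17 by 0.26 (0.386).

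Over the 16 lists 150 of 162 genes had a row. With the block 8 rose and 3 fell, or 7.33%, against 6.11% of all genes called in either direction, so the share is near the background. Without the block limma called 0 of the 150, with 15 at an unadjusted p under 0.05, or 10.0%, against 12.7% of all genes. Of the 11, the calls of Osmr, Ifnar1, Ifit2 and Cebpb were lost whichever replicate pair was left out, and that of Vegfa held in each case. Il11 lost its call without replicate 1, Il6st and Bcl2l1 without replicate 2, and Jak2, Birc5 and Timp1 without either.

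**Figure D4:**
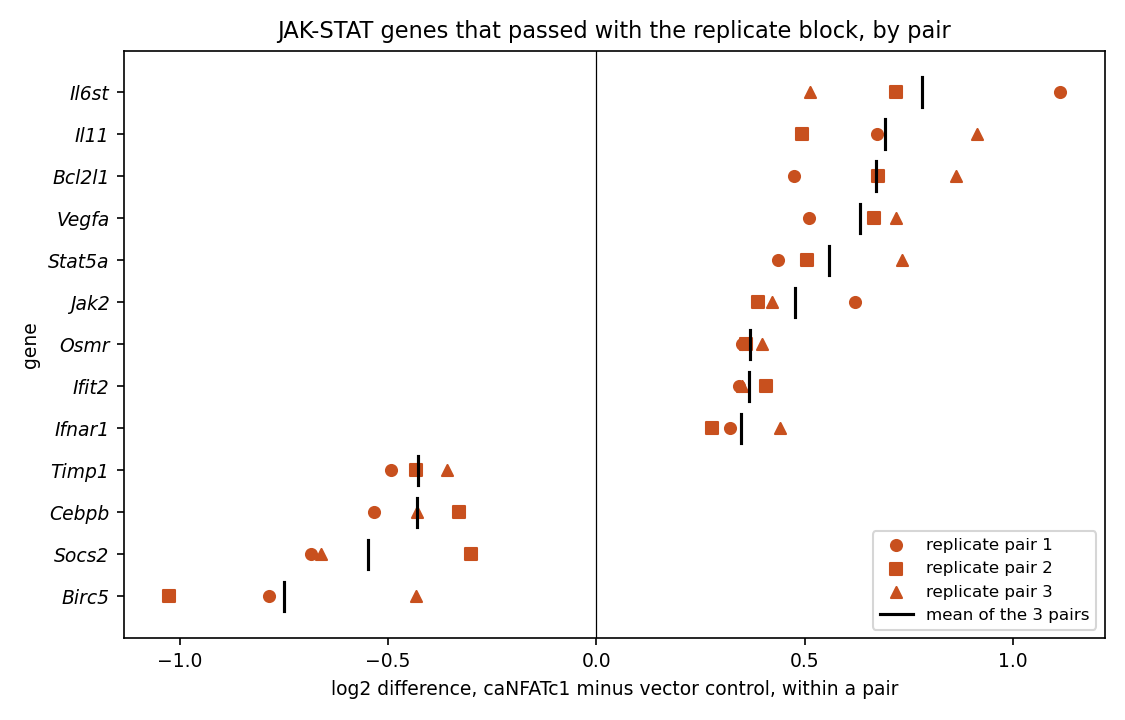
Log2 difference, caNFATc1 minus vector control (horizontal axis), within replicate pairs 1 (circles), 2 (squares) and 3 (triangles) for the JAK-STAT genes that passed limma's test with the replicate block (vertical axis); black bars are the means of the 3 pairs. Each of these genes has the same sign in the 3 pairs, and Il6st has the largest mean rise, 0.78, and Birc5 the largest mean fall, -0.75.

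The genes most like Stat5a over the 6 arrays, by the root mean square difference of their centred values from its own, were Cav2 (0.05), Hsd3b7 (0.06), Cav1 (0.07), Esyt1 (0.07) and Lclat1 (0.08). Cav1 and Cav2 encode the caveolins, coat proteins of caveolae at the cell surface. Their differences were 0.47 and 0.59, against 0.56 for Stat5a; the way these genes were chosen fixes differences of about that size, so no test is given.

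Markers of other cells were set beside these results. Of 9 fibroblast markers 1 was called with the block, against 3.73% of all genes called higher in that fit. Col3a1, a fibrillar collagen, rose by 1.20 ± 0.19 with the block (adjusted p = 0.0296, and 0.108 without). Pdgfra, a receptor of fibroblasts for platelet-derived growth factor, stood at -0.20, -0.18 and -0.20 on the control arrays and at 0.18, 0.47 and 1.27 on the caNFATc1 arrays, which did not overlap. Its difference of 0.83 ± 0.27, or 1.78-fold, exceeded that of Stat5a and did not pass (adjusted p = 0.284, and 0.0778 with the block; unadjusted p = 0.0217 and 0.00734). Of the 9 differences 7 were positive and 2 negative, and the median was 0.21. The medians within pairs 1, 2 and 3 were 0.03, 0.06 and 0.50, so the list differed mostly in pair 3. The mean of the 9 centred values ranged from -0.34 to -0.06 on the control arrays and from -0.24 to 0.65 on the caNFATc1 arrays. Of 7 melanocyte, 8 immune and 4 endothelial markers limma called 0 in either fit, and the medians were -0.05, -0.03 and -0.04. In each fit 0, 1 and 0 had an unadjusted p under 0.05. Over all 19935 genes the counts were 2534 without the block and 4287 with it. The genes of lowest p in these lists differed by -0.13 (Mlana) and 0.15 (Mitf) among melanocyte markers, -0.20 (Cd3e) and -0.22 (H2-Ab1) among immune markers, and -0.04 (Pecam1) and -0.10 (Cdh5) among endothelial markers. Of 11 keratinocyte markers 4 differences were positive and 7 negative, with a median of -0.05. With the block 1 was called, against 3.73% of all genes called higher in that fit. This was Trp63, the master factor of stratified epithelia, which rose by 0.42 ± 0.08 (adjusted p = 0.0444, and 0.322 without the block). The keratin gene Krt15 had the largest difference of the list, -0.58, and did not pass (adjusted p = 0.132 with the block). Krt1, a keratin of differentiating cells, differed by -0.13. The part of other cell types in the differences of Stat5a and Socs2 was not tested.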

How the data were processed

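RNA of 6 cultures, 3 per group, was measured on 6 arrays, grouped and numbered by their titles. The authors deposited log2 values; the submitters' processing notes name RMA and mm8, with software, version and filters not given in the sources used here. Row medians were 0 within 1e-06, so brightness is lost, no filter on dim rows could be run, and the number of arrays limits precision. Base 2 was taken because RMA gives log2 values. Of 28815 rows, 21780 carried 1 gene symbol in the platform annotation (1605 several, 5430 none here); rows of a gene were averaged.

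The test was limma (version 3.58.1, R 4.3.3; lmFit and eBayes, 2-sided), with group as the only term and Benjamini-Hochberg adjustment over all genes at 0.05, tested on simulated data. Deviations from group means correlated at 0.71, 0.61 and 0.57 for arrays of equal number, each over a limit of 0.1, and at -0.60 to 0.18 for other pairings. The numbers were therefore treated as pairs in an alternative fit with the replicate block, one of 22 alternatives. The highest correlation of the other pairings, 0.18, was also over the limit. Deviations sum to 0 within a group, so the correlations are not independent of each other. P-values measure spread between these cultures, called biological replicates by the series.

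The genes and lists were chosen with earlier results of these data known. Named were the 9 genes, pathway and marker genes called in either fit, in lists with fewer than 2 of these the genes of lowest p up to 2, and the 5 genes most like Stat5a. Jak1, Lif, Ghr, Igf1, Pim1 and Il24 were named after their values were seen. Sequence windows are from RefSeq (GRCm38.p6), another build than the arrays'.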

Additional observations from a re-analysis of the deposited data

How the results depend on the processing

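The count of all genes called, 43 in the unblocked fit, was 1219 with the replicate block, 1030 with the block and quantile normalization and 1687 with the block and array weights; without the block it was 169 with quantile normalization, 264 with array weights and 0 with the unmoderated test (2125 at an unadjusted p under 0.05). Of the 9 STAT and SOCS genes, 0 in the unblocked fit, 2 were called with the block, 2 with the block and quantile normalization, 2 with the block and array weights, and 1 with array weights alone (Stat5a). The pathway count, 0 in the unblocked fit, was 11, 10, 13 and 1 in the same settings. Without single arrays or whole pairs, and without the block, 0 to 83 of all genes were called (83 without caNFATc1 replicate 2) and 0 of the 9 genes and of the pathway genes. With the block and without replicate 1, 2 or 3 of both groups, 711, 743 and 1086 of all genes were called, 1 of the 9 genes each time (Stat5a, Socs2 and Stat5a) and 3, 3 and 9 pathway genes. Fewer samples enter these fits; the cause of the other changes was not tested. Over 23 settings Stat5a ranged from 0.47 to 0.62 and Socs2 from -0.74 to -0.37. Stat2 changed direction: with single arrays left out it ranged from -0.106 to 0.090, and it was 0.022 without replicate 1 and 0.030 without replicate 2 of both groups, with or without the block. The other 8 genes kept their direction in the settings run.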

Other observations

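Among pathway genes looked at after their values were seen, several varied more over the replicate numbers than between the groups. Il24, an epithelial cytokine of the IL-10 family that activates STAT3, stood at -2.62 and -3.07 on arrays 1 of the control and caNFATc1 groups, and at 1.06 and -0.11 on arrays 2 and 0.36 and 0.11 on arrays 3. Within pairs Il24 differed by -0.44, -1.16 and -0.25, on average by -0.62 (limma adjusted p = 0.108 with the block). Jak1, a kinase shared by many cytokine receptors, averaged -0.58 on arrays 1, 0.08 on arrays 2 and 0.03 on arrays 3. The growth hormone receptor gene Ghr averaged -0.55, 0.00 and 0.26, and Stat3 averaged -0.40, 0.05 and 0.18. Of the 2 genes called with the block, Stat5a, at -0.01, 0.04 and 0.08, varied by 0.09 over the replicate numbers. Socs2, at 0.37, -0.18 and 0.04, varied by 0.56, against a group difference of -0.55.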
